A study of Mus musculus with 6 samples.

Results

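The fibrillar collagen genes Col1a1, Col1a2, Col2a1, Col3a1, Col5a1, Col5a2, Col5a3, Col11a1 and Col11a2 were followed in RNA-seq counts from engrafted mouse mammary glands. They were chosen by name, as the genes for the chains of collagen types I, II, III, V and XI, and all 9 were among the 34590 genes of the count table. Inguinal fat pads (gland number 4) of WT females had been cleared of their own epithelium and engrafted with donor epithelium, WT.EGFP+ on the left and Adamts18-/-.EGFP+ on the right of the same mouse, which gave 3 WT and 3 Adamts18-/- libraries from 3 mice. Donors of both genotypes carried enhanced green fluorescent protein under the chicken β-actin promoter, the Adamts18-/- and EGFP lines were kept on the C57BL/6JOlaHsd background, and no drug or hormone treatment is named for these libraries. The Adamts18-/- allele lacks exons 8 and 9, which encode the catalytic site of the secreted protease Adamts18. By design only the graft differed in genotype: the host fat pad and its own stroma were WT in every gland. The counts do not show whether a graft brought donor stroma with it. Genotype and body side cannot be told apart, and the age of the hosts at harvest is not given in the sources used here. The 3 pairs came from separate experiments with different donors, so that host mouse, donor and experiment cannot be told apart and are called the mouse here. Values by gland are given in the order of mice 1, 2 and 3.

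Fibrillar collagens are the rope-like proteins of connective tissue. Trios of chains wind into a triple helix, the helices are secreted, trimmed and packed side by side into fibrils, and the fibrils are crosslinked by lysyl oxidases. In the mammary gland they fill the stroma around the ducts, where fibroblasts are their main known source. Types I and III make up the bulk of stromal fibrils, type V is built into type I fibrils and sets their assembly and width, and types II and XI are best known from cartilage.

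The 6 libraries held 53875123 to 71595924 counts, at which the limit that a count of 0 allows, 3 counts, was 0.0430 to 0.0574 CPM (counts relative to the library total after TMM scaling). Such limits cover counting error only. The labels describe the RNA as coming from sorted GFP-positive epithelial cells, but markers of other cell types were abundant in every library. Cfd, an adipocyte gene, lay between 3450 and 7187 CPM and Dcn, a fibroblast gene, between 1069 and 2998 CPM, whereas the epithelial adhesion gene Epcam, named after its values were seen, lay between 83.4 and 180 CPM. The label of a pure epithelial sort therefore did not match the markers, and the libraries are called glands here. Adamts18 itself had 252, 608 and 383 counts on the WT side and 144, 295 and 202 on the Adamts18-/- side. It was lower in the Adamts18-/- gland of each mouse (log2 fold change -0.83, SE 0.19, unadjusted p under 0.05, adjusted p = 0.987, edgeR quasi-likelihood test with Benjamini-Hochberg adjustment). Without mouse 2 its unadjusted p was not under 0.05 (log2 fold change -0.72). Counts per gene do not show which exons the remaining reads came from.

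The Adamts18-/- gland of mouse 3 stood apart from the other glands in a B-cell gene and in fibroblast markers. Its B-cell gene Cd79a, named after its values were seen, reached 154 CPM, against 3.17 to 37.1 CPM in the other 5 glands. Its 14 fibroblast markers together gave 3542 CPM, against 5396 to 8312 CPM elsewhere. By skeletal muscle markers, the Adamts18-/- glands of mice 1 and 2 stood apart instead. Their sums were 11032 and 10892 CPM, against 287 to 2799 CPM in the other glands, and both glands remain when mouse 3 is left out. Fitted values and mean differences of the collagens that rest on mouse 3 are also given without it, but correlations are not.

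Proximal promoters of 6 of the 9 genes were found in the RefSeq table for GRCm38.p6. Those of Col1a2, Col3a1, Col5a1 and Col5a3 are shown because these 4 genes stand for the abundant chain types I, III and V, and because Col3a1 and Col5a3 had the highest values of all glands in the Adamts18-/- gland of mouse 3. Col1a1, whose promoter was not found, and Col11a2, whose promoter is not printed, were highest in that gland too. Each sequence is the 150 bases before the annotated start, 5′ to 3′ on the gene's own strand, with the letters of the CCAAT, GC and TATA boxes, on either strand, in capitals.
Col1a2 (chr6:4505468-4505617, plus strand): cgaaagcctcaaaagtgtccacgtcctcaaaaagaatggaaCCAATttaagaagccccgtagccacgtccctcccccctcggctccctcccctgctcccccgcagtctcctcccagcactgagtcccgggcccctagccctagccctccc
Col3a1 (chr1:45311388-45311537, plus strand): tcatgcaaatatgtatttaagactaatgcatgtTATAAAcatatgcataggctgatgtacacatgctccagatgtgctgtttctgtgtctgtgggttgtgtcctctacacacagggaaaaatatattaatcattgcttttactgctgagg
Col5a1 (chr2:27886275-27886424, plus strand): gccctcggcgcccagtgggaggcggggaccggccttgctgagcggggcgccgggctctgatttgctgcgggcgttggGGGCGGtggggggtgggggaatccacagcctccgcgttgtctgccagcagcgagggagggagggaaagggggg
Col5a3 (chr9:20815068-20815217, minus strand): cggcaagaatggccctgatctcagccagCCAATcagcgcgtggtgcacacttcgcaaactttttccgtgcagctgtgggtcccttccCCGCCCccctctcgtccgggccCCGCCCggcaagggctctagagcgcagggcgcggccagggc

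The CCAAT box began at -109 in Col1a2 and at -122 in Col5a3, counted from the annotated start, and the GC box at -73 in Col5a1 and at -63 and -41 in Col5a3. In Col3a1 the only match in these 150 bases was a TATA box at -117, and its 250 upstream bases were the least GC-rich of the 6 promoters, at 35.2%, against 57.6% to 76.4% for the others. Within 250 upstream bases, searched on both strands, the CCAAT box (the letters CCAAT, which read ATTGG on the opposite strand) was found in 3 of the 6 promoters (Col1a2, Col5a3 and Col11a1) and in 33.8% of the 32851 promoters of the table. The GC box, spelled GGGCGG on one strand and hence CCGCCC on the opposite strand, was found in 5 of 6, all but Col3a1, and in 32.7% of the table. The TATA box, spelled TATAAA on one strand and hence TTTATA on the opposite strand, was found in 2 of 6 (Col3a1 and Col11a2) and in 12.4% of the table. No match overlapped another, and a match describes the letters only. Col3a1 and Col5a2 are neighbouring protein-coding genes on opposite strands of chromosome 1, whereas the other 7 genes lie on 7 further chromosomes (11 for Col1a1, 6 for Col1a2, 15 for Col2a1, 2 for Col5a1, 9 for Col5a3, 3 for Col11a1 and 17 for Col11a2).

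Fibrillar collagens of types I and III were abundant in these glands. By mean count, Col3a1 ranked 15, Col1a2 ranked 25 and Col1a1 ranked 54 of all genes. Per length they ranked 61, 121 and 228 of 29287 genes. Together the 9 genes took 0.783%, 0.643% and 0.725% of all counts in WT glands and 0.778%, 0.813% and 1.04% in Adamts18-/- glands. Of the collagen counts, Col3a1 supplied 45.2%, Col1a2 25.5% and Col1a1 16.3%, the 3 type V genes between 3.25% and 4.84% each, and Col11a1, Col11a2 and Col2a1 less than 0.1% each.

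Levels of different genes were compared per length, as CPM per kilobase of a single annotated transcript of each gene. A transcript marked as principal in the annotation was taken first, then a protein-coding one, and the longest among equals. Col3a1 was highest, at a mean of 648 CPM per kilobase over the 6 glands (range 508 to 934), followed by Col1a2 at 381 (286 to 424) and Col1a1 at 220 (183 to 242). These 3 ranges did not overlap. The type V genes came next, Col5a2 at 56.6 (47.7 to 62.3), Col5a1 at 45.9 (38.1 to 50.8) and Col5a3 at 42.1 (30.6 to 58.4) CPM per kilobase, and their ranges overlapped. Col11a2, at 0.862 (0.571 to 1.56), and Col11a1, at 0.773 (0.441 to 1.13), overlapped as well, and Col2a1 was lowest at 0.0281 CPM per kilobase. When all annotated exons of a gene were taken as its length, Col1a1 came above Col1a2 (199 against 164 CPM per kilobase) and Col5a1 above Col5a2 (45.4 against 39.1), so the order within types I and V depended on the length used.

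**Figure D1:**
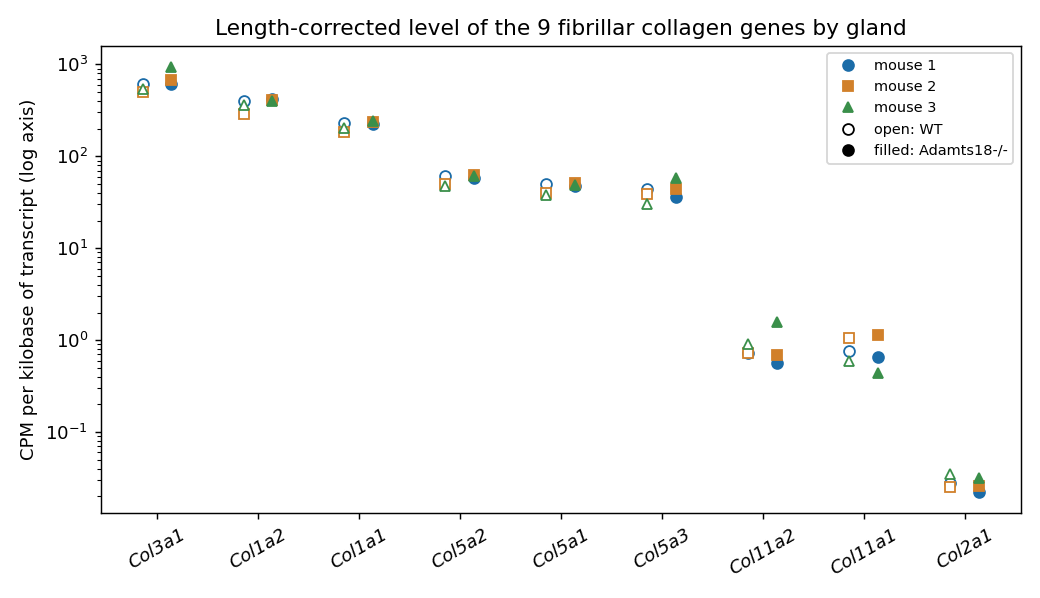
CPM per kilobase of transcript (log axis) of the 9 genes, ordered by mean level, with open symbols for WT and filled symbols for Adamts18-/- glands and 1 colour and shape per mouse. Types I and III lie at 183 or above, type V between 30.6 and 62.3, type XI around 1 and Col2a1 below 0.1 CPM per kilobase, in glands of both genotypes.

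The genotype comparison was made between the glands of each mouse, WT fat pads engrafted with WT or with Adamts18-/- epithelium. It asked whether levels of fibrillar collagen transcripts differed between them. Of the 9 genes, 8 passed the filter on low counts, and 7 of these were fitted higher and 1, Col11a1, lower in Adamts18-/- glands, with a median log2 fold change of 0.21 beside 0.00065 over the 17345 genes tested. Without mouse 3, 5 were fitted higher and 3 lower, and all 8 were higher when libraries were scaled to the pan-epithelial markers, which moved the median of all genes to 0.45. Of all genes tested, 50.2% were fitted higher and 49.8% lower. None of the 8 passed the thresholds of the study, a fold change under 0.8 or over the inverse of 0.8 with an unadjusted p under 0.05, which 1.17% of all genes passed upwards and 1.84% downwards, 3.01% in all. Without mouse 3 the count was again 0 of 8, against 3.34% of all genes upwards. At an unadjusted p under 0.05 alone the count was also 0 of 8, against 3.86% of all genes, and each of the 8 had an adjusted p of 0.987 (edgeR quasi-likelihood test, Benjamini-Hochberg). DESeq2 called 1 of the 8, Col3a1, higher, where 1.96% of all genes passed upwards in that fit. In limma-voom 0 of the 8 were called, where 1.99% of all genes passed upwards and 1.98% downwards. Nothing in the labels gives separate cultures or litters beyond the 3 mice. The p-values therefore rest on the spread between these 3 pairs, which the fits moderate by the spread of all genes tested.

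The WT and Adamts18-/- values overlapped for all 8 genes, where 2.31% of all genes had every Adamts18-/- gland above every WT gland and 2.63% had every one below. Only Col1a2 was higher in the Adamts18-/- gland of all 3 mice, 1 of 8 genes, against 10.8% of all genes, and 0 of 8 were lower in all 3, against 12.7%. In mouse 1, 7 of the 8 genes were lower in the Adamts18-/- gland, by log2 differences from -0.36 (Col11a2) to -0.0047 (Col3a1), so that some were nearly level. The share of all genes lower in that mouse was not counted. In mouse 2 only Col11a2 was lower in the Adamts18-/- gland, and in mouse 3 only Col11a1. In bulk RNA, fewer or more cells that express a gene cannot be told apart from less or more RNA per cell.

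Type I collagen, the main load-bearing component of most fibrils, is a trimer of the Col1a1 and Col1a2 products. Col1a1 was at 1358, 1084 and 1215 CPM in WT and at 1319, 1408 and 1435 CPM in Adamts18-/- glands. The lowest 2 glands were WT, but the WT gland of mouse 1 lay above its partner. The means were 1219 ± 137 and 1388 ± 60.6 CPM (SD, n = 3 each), and edgeR gave a log2 fold change of 0.19 with a 95% interval from -0.16 to 0.55. Col1a2 was at 2157, 1531 and 1937 CPM in WT and at 2266, 2179 and 2153 CPM in Adamts18-/- glands. The Adamts18-/- glands were close together and the WT glands spread below and into their range. The means were 1875 ± 317 and 2199 ± 58.8 CPM (SD, n = 3 each), and edgeR gave a log2 fold change of 0.24 with a 95% interval from -0.14 to 0.63. Both values rested in part on mouse 2, and without it they were 0.099 for Col1a1 and 0.11 for Col1a2.

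Type III collagen, a homotrimer of the Col3a1 product that co-assembles with type I in soft tissues, showed the largest fitted difference of the 8. Col3a1 was at 3427, 2824 and 2974 CPM in WT and at 3416, 3779 and 5198 CPM in Adamts18-/- glands. The pair of mouse 1 was nearly level, and the 2 highest glands of all were the Adamts18-/- glands of mice 2 and 3. The means were 3075 ± 314 and 4131 ± 941 CPM (SD, n = 3 each), and the fitted log2 fold change was 0.41 (SE 0.20, 95% interval from -0.12 to 0.94, adjusted p = 0.987, edgeR quasi-likelihood test). DESeq2 gave the same fold change with an unadjusted p under 0.05 and an adjusted p of 0.816, past the thresholds, which 1.96% of all genes passed upwards in that fit. Without mouse 3 the edgeR log2 fold change was 0.22.

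Among the type V genes, Col5a1, whose product is needed to start fibrils, was at 416, 335 and 321 CPM in WT and at 405, 427 and 410 CPM in Adamts18-/- glands. Col5a2, its usual partner in the trimer, was at 404, 328 and 316 CPM in WT and at 383, 413 and 405 CPM in Adamts18-/- glands. Both genes shared a pattern: the WT glands of mice 2 and 3 were the lowest, and the other 4 glands were within a narrow band. Their log2 fold changes were 0.22 (95% interval from -0.095 to 0.54) for Col5a1 and 0.20 (from -0.12 to 0.53) for Col5a2. When 1 mouse was left out in turn they ranged from 0.16 to 0.35 and from 0.14 to 0.34.

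Col5a3, which encodes a less widespread type V chain, was at 268, 241 and 187 CPM in WT and at 220, 272 and 357 CPM in Adamts18-/- glands. The lowest and the highest value came from the glands of 1 mouse, mouse 3, and the pair of mouse 1 went the other way. The log2 fold change was 0.27 (SE 0.25, 95% interval from -0.38 to 0.92), and it was -0.046 without mouse 3.

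The type XI genes were detected at a low level in all 6 glands. Col11a1 was at 5.91, 8.06 and 4.55 CPM in WT and at 5.03, 8.63 and 3.38 CPM in Adamts18-/- glands, where both glands of mouse 2 were the highest and both of mouse 3 the lowest. Its log2 fold change was -0.18 (95% interval from -0.61 to 0.24), and it was -0.055 without mouse 3 and -0.33 without mouse 2. Its spread followed the mouse: the edgeR test of differences between mice gave the smallest value of the 8 for Col11a1, with an adjusted p of 0.0913. None of the 8 genes passed an adjusted p under 0.05 in that test, which 0.628% of all genes did. Col11a2 was at 3.96, 3.88 and 4.87 CPM in WT and at 3.08, 3.70 and 8.41 CPM in Adamts18-/- glands. A single gland, the Adamts18-/- gland of mouse 3, lay far above the other 5. The log2 fold change was 0.12 (95% interval from -0.58 to 0.82), and it was -0.21 without mouse 3.

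Col2a1, the main chain of cartilage fibrils, had 10, 8 and 10 counts in the WT glands and 6, 8 and 10 counts in the Adamts18-/- glands, which was above 3 counts in each but too low for the test. Other cartilage genes were scarce as well: of 8 chondrocyte markers, 3 had at most 3 counts in every gland, among them Acan, the cartilage proteoglycan, with 1 to 3 counts.

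**Figure D2:**
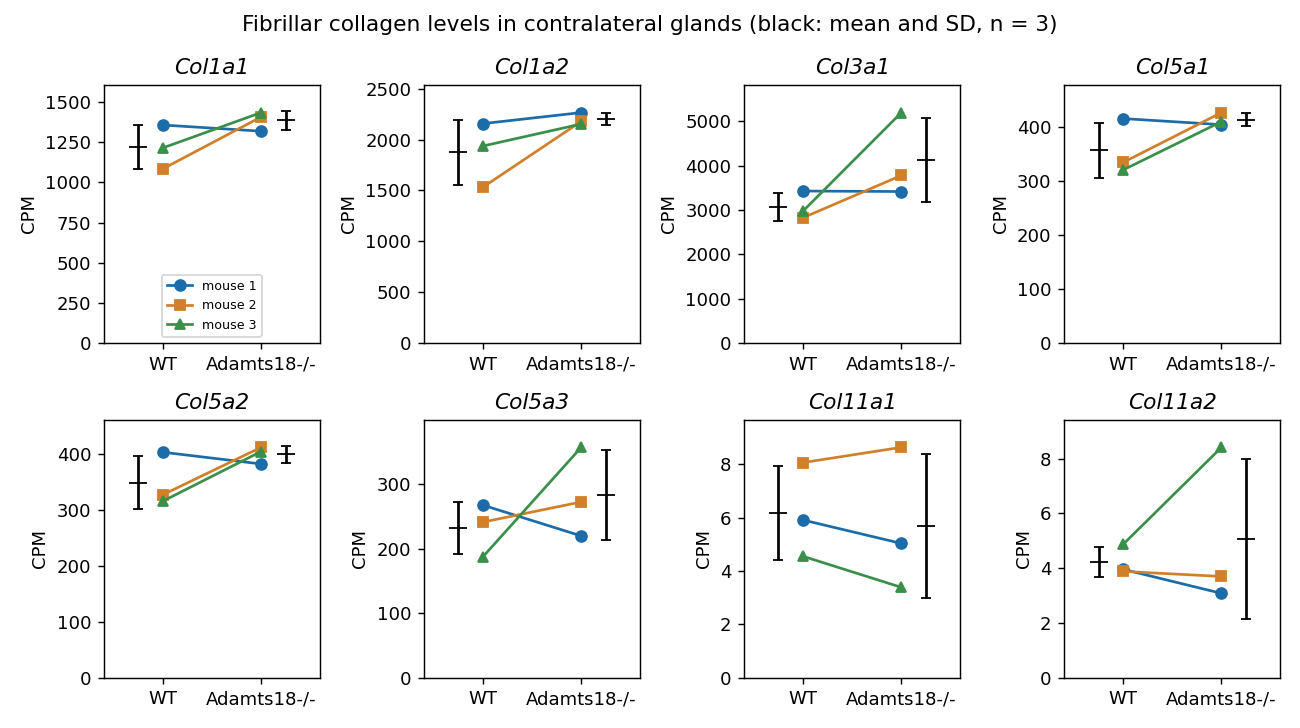
CPM of the 8 tested genes, with a line joining the WT and the Adamts18-/- gland of each mouse and black bars for the mean and SD of each group (n = 3). Lines for mouse 1 are flat or fall for 7 genes. The line of mouse 3 is the steepest for Col3a1, Col5a3 and Col11a2, narrowly for Col5a2, and for Col11a1, where it falls.

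**Figure D3:**
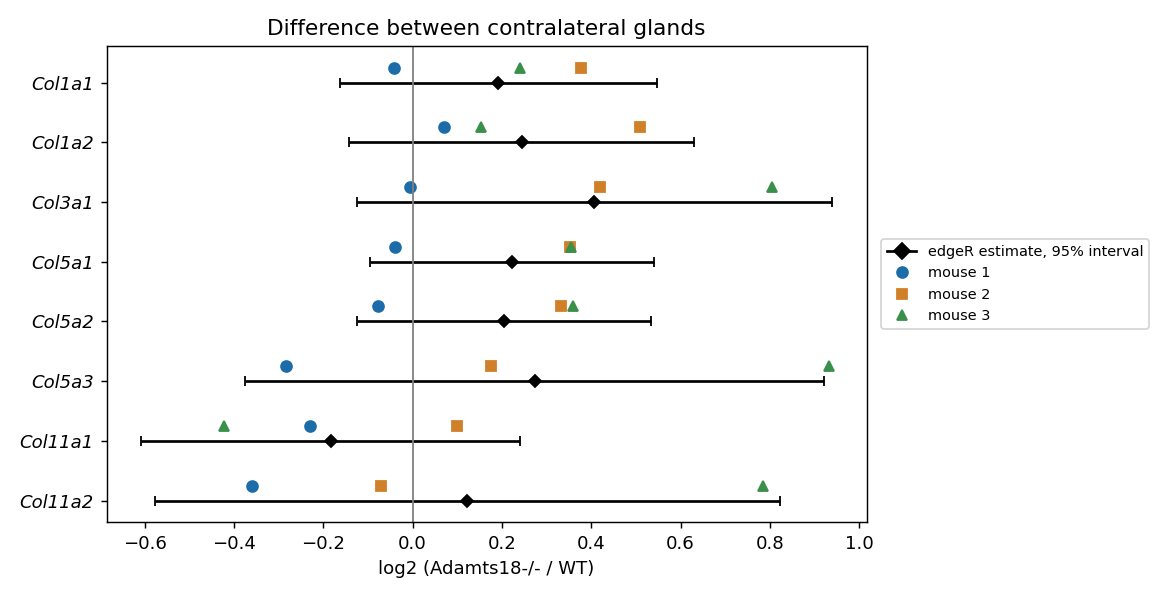
log2 ratio of Adamts18-/- over WT for the 8 tested genes, with black diamonds and bars for the edgeR estimate and its 95% interval and coloured symbols for each mouse. All 8 intervals include 0, and the 3 mice are furthest apart for Col5a3 and Col11a2.

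Expressed as folds, the Adamts18-/- gland of mouse 3 held 1.91 times the Col5a3, 1.75 times the Col3a1 and 1.72 times the Col11a2 of its WT partner. Ratios this high or higher were found in mouse 3 for 5.18%, 6.65% and 6.91% of the genes tested. For Col1a1 and Col1a2 the ratio in that mouse was 1.18 and 1.11, which 22.7% and 30.7% of genes reached. Col11a1 was lower there, at 0.746 times its partner.

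Because scaling factors cancel within a library, ratios between chains were compared as counts per length. The ratio of Col5a2 to Col5a1 was nearly fixed, at 1.233, 1.243 and 1.251 in WT and 1.201, 1.227 and 1.253 in Adamts18-/- glands. The log2 of this ratio had an SD of 0.0229 over the 6 glands, where counting error alone gives 0.0136. The ratio of Col1a2 to Col1a1 was more variable, at 1.76, 1.57 and 1.77 in WT and 1.90, 1.72 and 1.66 in Adamts18-/- glands, with an SD of 0.0946 on the log2 scale against 0.0066 from counting.

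The ratio of Col3a1 to Col1a1 was 2.69, 2.78 and 2.61 in WT and 2.76, 2.86 and 3.86 in Adamts18-/- glands. It was higher in the Adamts18-/- gland of all 3 mice, by 0.037, 0.043 and 0.56 on the log2 scale, so that 1 mouse supplied most of the mean difference of 0.22, which was 0.040 without mouse 3. The ratio of Col5a3 to Col5a1 was 0.884, 0.990 and 0.803 in WT and 0.746, 0.877 and 1.20 in Adamts18-/- glands, lower in mice 1 and 2 and higher in mouse 3. Over 7 ratios, 4 of them chosen after their values were seen, no exact permutation test with sign flips of the 3 pairs (two-sided) gave less than p = 0.25, the smallest p that 3 pairs allow, and Benjamini-Hochberg adjusted values were 0.875 or 1. The summed share of all counts, at 0.717 ± 0.0706% in WT and 0.878 ± 0.144% in Adamts18-/- glands (SD, n = 3 each), gave p = 0.5 in the same exact permutation test. The Adamts18-/- gland differed from its partner by -0.0051, 0.17 and 0.32 percentage points, a mean of 0.16, which was 0.083 without mouse 3.

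**Figure D4:**
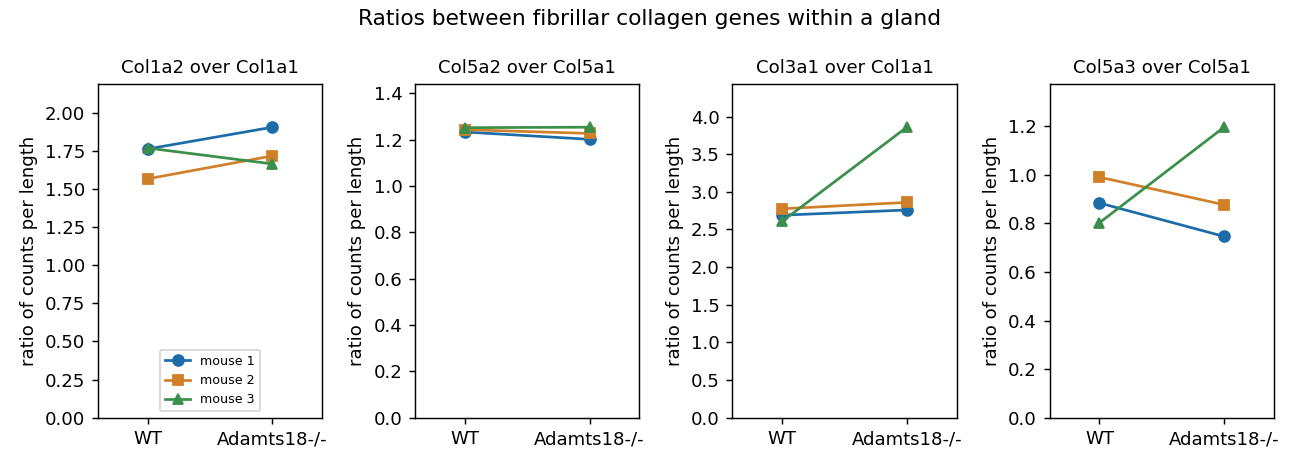
Ratios of counts per length between collagen genes in each gland, with a line joining the glands of each mouse. Col5a2 over Col5a1 stays between 1.201 and 1.253, whereas Col3a1 over Col1a1 and Col5a3 over Col5a1 are highest in the Adamts18-/- gland of mouse 3, at 3.86 and 1.20.

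Across the 6 glands, which share mice and depth, log2 CPM of Col5a1 and Col5a2 had a Pearson r of 0.99, Col1a1 and Col1a2 of 0.91 and Col3a1 and Col5a3 of 0.86, as a description. For Col11a1 and Col11a2 r was -0.70, with the highest Col11a2 and the lowest Col11a1 both in the Adamts18-/- gland of mouse 3, although both genes were lower in the Adamts18-/- gland of mouse 1. No r of these pairs was computed without mouse 3. The genes most like Col1a1 over the 6 glands were Nudt19, A930015D03Rik, Gm1821, Agfg1, Tmem66, Atf4, Snord49a, Stard7, SNORD123 and Ppp4r2 (r from 0.96 to 0.99), of which Gm1821, Snord49a and SNORD123 were under 1 CPM. After the mean of each mouse was removed they included Mars, Nudt19, Myo5a, Zfp780b, Notch2, A230051G13Rik, Snord49a, Rps6ka3 and Plek, all with r above 0.99. The centred values of a pair mirror each other, so each such r rests on 3 separate values. A search over all genes tested can be expected to find some this high, and shared regulation was not tested. 

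Levels of cell type markers moved along with the collagens in some pairs and against them in others. Summed CPM of the fibrillar collagens in the Adamts18-/- gland was 0.997, 1.34 and 1.43 times that of its WT partner. The 14 fibroblast markers, led by Dcn, Dpt and Pi16, were at 1.05 and 1.28 times in mice 1 and 2 but at 0.611 times in mouse 3, where all 14 were lower in the Adamts18-/- gland. Collagen CPM per fibroblast marker CPM was accordingly 1.02, 1.18 and 1.20 in WT and 0.964, 1.23 and 2.82 in Adamts18-/- glands, a ratio formed after the values were seen. None of the 14 fibroblast markers was called, against 3.01% of all genes, and their median log2 fold change was -0.075.

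The 22 pan-epithelial markers were in sum at 0.966, 0.594 and 0.685 times the WT level, between 1475 and 1832 CPM in Adamts18-/- glands and between 1834 and 2674 CPM in WT glands. Of the 22, 9 were called lower and 0 higher, against 1.84% and 1.17% of all genes, with Krt19 (log2 fold change -0.62), Krt18 (-0.52) and Krt8 (-0.43) the most abundant, and the median was -0.39. Over the 6 glands (log2 scale, description only) the epithelial sum had an r of -0.96 with Col5a1, -0.95 with Col5a2, -0.82 with Col1a1, -0.74 with Col1a2, -0.60 with Col3a1, -0.56 with Col5a3, -0.15 with Col11a1 and 0.13 with Col11a2. The fibroblast sum had an r of 0.21, 0.11, -0.015, 0.28, -0.54, -0.54, 0.49 and -0.91 with the same genes in that order. The Adamts18-/- gland of mouse 3 had the lowest fibroblast sum and the highest Col3a1, Col5a3 and Col11a2, which weighs on these values. No r with either sum was computed without mouse 3. Luminal markers, which share Krt8, Krt18 and Krt19 with the pan-epithelial list, had 6 of 11 called lower (median -0.52). Myoepithelial markers such as Acta2 and Myh11 had 9 of 10 (median -0.49). Krt14, Krt17 and Trp63 were called in both the myoepithelial and the pan-epithelial list, so the counts of these lists are not separate. The other marker lists had 0 calls, against 3.01% of all genes called either way. Pericyte, endothelial, adipocyte and Schwann cell markers had median log2 fold changes between -0.21 and -0.086. Leukocyte markers summed to 1.002, 1.11 and 1.80 times the WT level. In mouse 3, 3 of the 8 were lower in the Adamts18-/- gland, among them the macrophage genes Csf1r (286 against 238 CPM) and Cd68 (67.1 against 60.7 CPM), and the pan-leukocyte gene Ptprc was higher (204 against 549 CPM), each given as WT against Adamts18-/-. Skeletal muscle markers such as Myh4 summed to 38.5, 13.0 and 0.677 times. The part of these markers in the collagen levels was not tested.

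**Figure D5:**
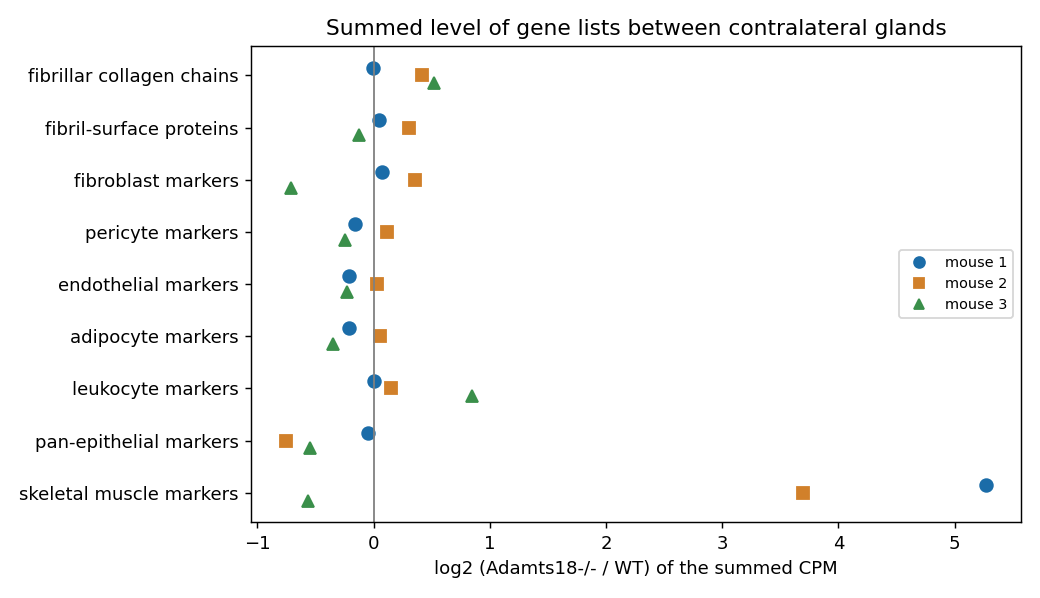
log2 ratio of Adamts18-/- over WT for the summed CPM of the fibrillar collagens, of fibril-surface proteins and of cell type marker lists, with 1 symbol per mouse. In mouse 3 the collagens are higher by 1.43 times while the fibroblast markers are lower, at 0.611 times.

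Further lists held genes whose products build, cover, bind or degrade the fibrils. Of 17 measured genes for procollagen folding and modification, led by P4hb, Serpinh1 (the collagen chaperone Hsp47) and Ppib, 0 were called. Over all genes 3.01% were called either way, and 0 calls in lists this short cannot be told apart from that share. The median log2 fold change of the 17 genes was 0.041. Plod2, a lysyl hydroxylase for crosslink sites that was named after its values were seen, was at 52.6, 71.1 and 37.8 CPM in WT and at 56.3, 87.0 and 66.0 CPM in Adamts18-/- glands, higher in all 3 mice (log2 fold change 0.40, adjusted p = 0.987, edgeR). Its unadjusted p in the fit of all mice was 0.0508 (edgeR quasi-likelihood test), just short of the thresholds. Of the fits that left out 1 mouse in turn, Plod2 passed the thresholds only in that without mouse 1 (log2 fold change 0.54). Its log2 fold change was 0.20 without mouse 3. Values of Plod2 under the other alternatives are not given here. Of 12 tested genes for propeptide cleavage and crosslinking (median -0.024), led by Bmp1, Adamts2 and Loxl1, 0 were called, against 3.01% of all genes.

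Of 15 genes for proteins on the fibril surface (median -0.051), 0 were called, against 3.01% of all genes. Fn1, the fibronectin gene, was at 2371, 1724 and 3732 CPM in WT and 2569, 2157 and 4580 CPM in Adamts18-/- glands. Dcn, also a fibroblast marker, encodes the proteoglycan decorin that limits fibril fusion and was at 2847, 1929 and 1913 CPM in WT and 2998, 2596 and 1069 CPM in Adamts18-/- glands. In the Adamts18-/- gland of mouse 3, Dcn was at its lowest and Col3a1 at its highest. Of the 2 minor fibrillar chains, Col24a1 had a log2 fold change of 0.39 (SE 0.25) and Col27a1 of -0.02 (SE 0.13), and neither was called.

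Of 9 collagen receptor genes (median -0.048), led by Itgb1, Ddr2 and Mrc2, 0 were called, against 3.01% of all genes. Ddr1, a collagen-binding receptor kinase of epithelial cells that was named after its values were seen, was at 81.4, 92.3 and 88.4 CPM in WT and at 70.0, 74.2 and 69.9 CPM in Adamts18-/- glands. Its groups did not overlap (log2 fold change -0.29, SE 0.066, unadjusted p under 0.05, adjusted p = 0.987, edgeR), as for 2.63% of all genes, but the fold stayed above the limit of 0.8. Its unadjusted p was not under 0.05 without mouse 1 (log2 fold change -0.33).

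Of 8 collagen-degrading proteases, led by Mmp2, Mmp14 and Ctsk, 1 was called lower, where 1.84% of all genes were, and the median was -0.10. This was Mmp15, a membrane-bound metalloproteinase, at 59.8, 76.8 and 80.7 CPM in WT and 57.5, 54.4 and 59.7 CPM in Adamts18-/- glands (log2 fold change -0.33, SE 0.11, unadjusted p under 0.05, adjusted p = 0.987, edgeR). Its level was lower in all 3 Adamts18-/- glands than in any WT gland, as for 2.63% of all genes. It was called without mouse 1 (-0.47) but not without mouse 2 (-0.25) or mouse 3 (-0.27). Of 15 tested transcriptional regulators with known roles at collagen genes (median 0.011), led by Sp1, Smad4 and Smad3, 0 were called, against 3.01% of all genes.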

How the data were processed

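Per the submitters' processing notes and the labels, the authors sequenced single-end reads of 85 bp (NextSeq 500), converted them with bcl2fastq 2.18, aligned them with TopHat2 2.0.11 to mm9 and made the deposited table of whole-number read counts per gene with featureCounts 1.6.2, without normalization. The annotation and strand setting are not given in the sources used here, so reads of overlapping genes (an antisense gene covers 1.33% of the exon bases of Col5a1) may not have been told apart.

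Counts were fitted in R 4.3.3 with edgeR 4.0.16 (TMM, its expression filter, quasi-likelihood test, mouse as a block plus genotype) over 17345 genes, with Benjamini-Hochberg adjustment. DESeq2 1.42.0 and limma-voom (limma 3.58.1) were alternatives, and the scripts were tested on simulated data. Leaving out each mouse for Adamts18, Plod2, Ddr1 and Mmp15 was added after seeing the data. log2 CPM used a prior count of 2. The pairs come from the study's contralateral design, and the 2 glands of a mouse deviated together (correlations of 0.512, 0.505 and 0.639). Lengths came from the GENCODE M21 annotation of GRCm38. Of 11 listed symbols under older names, 10 were matched, and Mia3 was not.

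The collagens and the gene lists were chosen with earlier results of these data known. Genes named were the 9 collagens, Adamts18, the called and the up to 3 most abundant genes of each list, and the 10 genes most like Col1a1. Others are named as chosen after their values were seen. A gene that this rule selects is left out of the text but stayed in the fits and lists.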

Additional observations from a re-analysis of the deposited data

How the results depend on the processing

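The log2 fold changes of Col1a1, Col1a2, Col3a1, Col5a1 and Col5a2 were above 0 under all 14 alternatives, from 0.099 to 0.86. With libraries scaled to the pan-epithelial markers, 2 collagens were called higher, Col3a1 (0.86, adjusted p = 0.26, edgeR) and Col5a3 (0.73, adjusted p = 0.332), where 12.4% of all genes were. That scaling set the median of all genes to 0.45, that of the collagens to 0.67 and Col11a1 to 0.26. Relative to all genes these were 0.22 and -0.19, close to the 0.21 and -0.18 of the TMM scaling. DESeq2 called 1 collagen higher, against 1.96% of all genes. Scaling to the fibroblast markers called 0, against 1.80% of all genes, with a median of 0.30 beside 0.092 over all genes. Leaving out 1 mouse in turn gave collagen medians from 0.15 to 0.34. Col5a3 ranged from -0.046 (without mouse 3) to 0.55 and Col11a2 from -0.21 (without mouse 3) to 0.36.

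Over all genes, 203 were higher and 319 lower. The higher count was 340 with DESeq2, 345 with limma-voom, 352 with no filter, 2149 and 312 with epithelial and fibroblast scaling, and 182 to 581 when 1 mouse was left out, with 319 without mouse 2 and 581 without mouse 3. The lower count was 28 and 45 with those scalings and 214 to 481 when 1 mouse was left out, with 481 without mouse 1. By adjusted p, 0 genes passed in edgeR and limma-voom, 71 in DESeq2, 268 without mouse 3, and 367 and 147 with the scalings. The shares of higher calls were 38.9% with TMM, 98.7% with epithelial, 87.4% with fibroblast and 31.5% with library size scaling. Without the replicate block, 125 genes were lower and 0 collagens were called, so it changed no collagen call. The cause of these shifts was not tested. With 3 pairs, differences as small as those of the collagens lay within intervals that include 0.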
